A study of Homo sapiens with 4 samples.

Results

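DNA damage response and Fanconi genes were examined in the m6A peak lists of OE-19 cells, an established cell line of adenocarcinoma of the esophagogastric junction (AEG). The set held 40 named genes of 20046 protein-coding genes in the GENCODE annotation of hg38, all of which were found there. The rule took genes by name and not by a measured value, but the set was proposed with earlier results of these data known. In meRIP-seq, an antibody against N6-methyladenosine (m6A) captures fragmented RNA, and a peak is a region in which captured fragments accumulate. There were 4 samples of OE-19 cells grown in serum-containing medium: 2 replicates of the m6A immunoprecipitation (IP) and 2 of the input RNA. No treatment is named, but per the labels the cells were fixed with UV and lysed. Peaks were listed separately for each IP replicate, and the input samples were not analysed here. All values come from 1 cell line and 1 condition, so the comparisons are between the replicates, among the members, and between the members and all protein-coding genes. The labels do not say whether the replicates were separate cultures.

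Cells meet DNA breaks and stalled replication forks with a kinase-led checkpoint and with several repair routes. Homologous recombination copies the lost sequence from the sister chromatid and depends on BRCA1, PALB2 and BRCA2. Non-homologous end joining ligates the ends directly, and the Fanconi anaemia pathway unhooks strands that are crosslinked to each other. The mark m6A is written by the METTL3-METTL14 complex on adenosines in short motifs such as GGAC, and it is typically dense near stop codons and inside long internal exons. It influences how long an mRNA lasts through reader proteins such as those of the IGF2BP family.

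Replicate 1 had 24607 peaks, of which 18488 had their summit in an exon of a protein-coding gene, and replicate 2 had 19318 and 12003. A summit is the base of highest pileup within a peak. Fold enrichment is the authors' ratio of IP signal at the summit over the local background of the peak caller, and each q is the caller's own for that peak. The lists hold no read numbers, so the depth is unknown, and they give no expression level. A gene with little m6A and a gene with little RNA therefore cannot be told apart, and the labelled cell line could not be checked against marker levels.

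The sequences under shared peaks of 9 genes, 1 for each gene, are shown because they carry the pattern described next, peaks inside long coding exons. Each is the 101 nt window centred on the replicate 1 summit, read 5′ to 3′ on the gene's strand from the hg38 genome, with every GGAC, GAAC and AGAC in capitals.
SLX4, exon 12, chr16:3589867-3589967, minus strand: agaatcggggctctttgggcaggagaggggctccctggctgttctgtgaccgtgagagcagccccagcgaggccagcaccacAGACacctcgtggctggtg
ATRIP, exon 8, chr3:48460353-48460453, plus strand: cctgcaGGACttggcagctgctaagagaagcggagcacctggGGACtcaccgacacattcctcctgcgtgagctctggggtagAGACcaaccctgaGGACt
PMS2, exon 11, chr7:5987236-5987336, minus strand: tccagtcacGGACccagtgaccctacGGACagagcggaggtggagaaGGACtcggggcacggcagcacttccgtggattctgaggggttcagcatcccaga
PALB2, exon 4, chr16:23636022-23636122, minus strand: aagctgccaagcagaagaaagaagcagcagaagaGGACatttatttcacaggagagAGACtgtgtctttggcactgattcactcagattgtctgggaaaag
BRCA2, exon 10, chr13:32333053-32333153, plus strand: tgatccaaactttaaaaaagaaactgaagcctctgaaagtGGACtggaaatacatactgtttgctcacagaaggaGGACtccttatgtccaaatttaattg
CLSPN, exon 3, chr1:35764434-35764534, minus strand: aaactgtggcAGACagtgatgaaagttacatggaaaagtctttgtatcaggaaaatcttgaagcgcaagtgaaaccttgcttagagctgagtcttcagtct
RIF1, exon 30, chr2:151463980-151464080, plus strand: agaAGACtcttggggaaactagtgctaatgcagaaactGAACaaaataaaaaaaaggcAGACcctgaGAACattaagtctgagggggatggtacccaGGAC
MSH6, exon 4, chr2:47799324-47799424, plus strand: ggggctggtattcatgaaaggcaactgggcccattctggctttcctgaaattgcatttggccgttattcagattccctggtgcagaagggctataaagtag
BRCA1, exon 10, chr17:43094286-43094386, minus strand: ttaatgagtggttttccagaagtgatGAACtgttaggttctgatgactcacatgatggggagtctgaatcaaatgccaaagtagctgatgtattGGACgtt

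All of these windows lie in coding sequence. ATRIP and PMS2 held 3 copies of GGAC each and BRCA2 held 2, whereas SLX4 and CLSPN held a single AGAC and no GGAC. These counts hold for the replicate 1 summits only. The replicate 2 summit of the SLX4 pair, 637 bp away, had 1 GGAC within 50 nt. Those of PALB2, RIF1 and BRCA1 had 0. In MSH6 none of the 3 motifs was present within 50 nt of the summit. The base composition ranged from 36.6% G and C in the BRCA2 window to 65.3% in the SLX4 window. A search of the hg38 chromosomes found another place that aligned over at least 80% of the window for PMS2 only. It was 98.02% identical over 101 nt and lay at chr7:6737360-6737460 in PMS2CL, a partial copy of PMS2.

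First, the number of members with a peak was determined. An exonic peak was present in both lists for 26 of 40 members (65.0%, 95% Wilson interval 49.5% to 77.9%), against 33.4% of all protein-coding genes. Replicate 1 alone had 27 members (67.5%) against 42.4% of all genes, and replicate 2 had 26 against 34.1%. In either list there were again 27 members, against 43.1% of all genes. The members have a large exonic length, and genes of larger exonic length more often held a peak. This length merges the exons of all annotated transcripts of a gene, so it can exceed that of its main transcript. When every member was given the share of protein-coding genes in its own 1 of 20 bins of exonic length, the share for both lists was 45.6%, equal to 18.2 of 40 genes. The members' count of 26 was thus above the level of genes of like exonic length, and 45.6% lay below the Wilson interval. Expression and the length of the main transcript were not part of this comparison. The interval covers counting error only, and no test was made because of how the set was proposed.

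By role, the number of genes with a peak in both lists was counted, beside 33.4% of all protein-coding genes. In the checkpoint group it was 5 of 7, in the MRE11-RAD50-NBN complex 2 of 3, and in homologous recombination 9 of 11. The Fanconi group had 7 of 10. Non-homologous end joining had 1 of 5, the ligase LIG4, and the group of single-strand break and mismatch repair had 2 of 4. Small groups such as these do not allow the shares to be ranked.

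**Figure D1:**
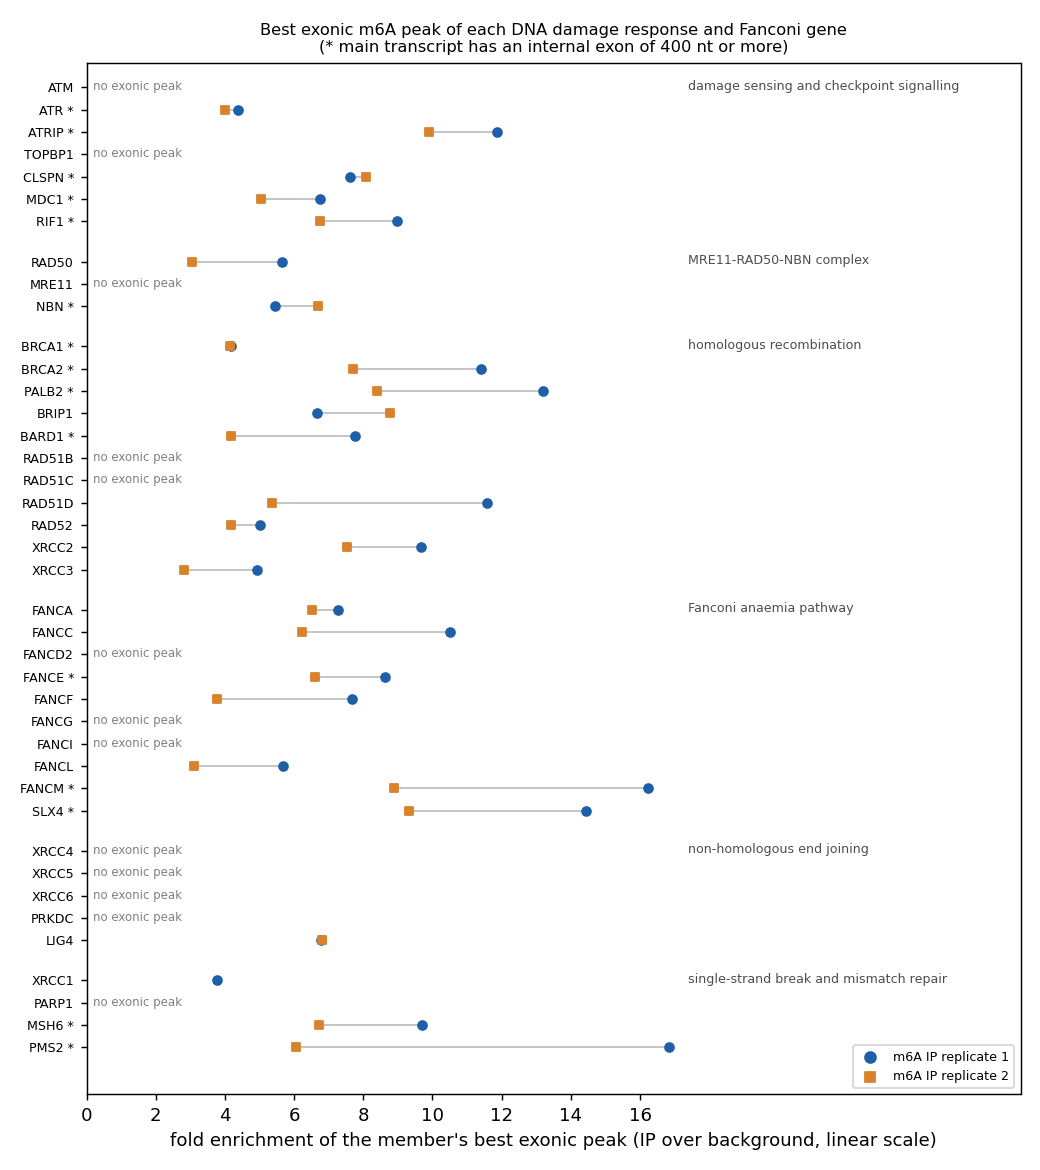
Fold enrichment (linear axis) of the best exonic peak of each of 40 members, grouped by role; circles are m6A IP replicate 1, squares replicate 2, and a star marks a main transcript with an internal exon of 400 nt or more. All 15 starred genes have a peak in both replicates, 13 genes have none, and the highest values are those of PMS2 (16.8) and FANCM (16.2) in replicate 1.

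The members without an exonic peak in either list numbered 13. They were the break-sensing kinase ATM and the ATR activator TOPBP1, the nuclease MRE11, the recombination genes RAD51B and RAD51C, and the Fanconi proteins FANCD2, FANCG and FANCI. The other 5 were XRCC4, the Ku subunits XRCC5 and XRCC6, the DNA-dependent kinase PRKDC, and the break sensor PARP1. Their exonic length, merged over all annotated transcripts, had a median of 7674 nt, with a range of 2676 to 39184 nt. For the 26 members with a peak in both lists it was 10901 nt (3291 to 37977 nt). This is not the length of the main transcript. In ATM and PRKDC that was 12915 nt and 13459 nt, but in RAD51C it was 2562 nt beside an exonic length of 16404 nt. FANCL, with a peak in both lists, had an exonic length of 37977 nt and a main transcript of 1658 nt. All 13 lacked a long internal exon. So did 11 members with a peak in both lists, and 16364 of 20046 protein-coding genes. In the main transcripts of the 13, the longest internal exon had a median of 243 nt and a maximum of 372 nt, in ATM. XRCC1, a scaffold of single-strand break repair, had a peak in replicate 1 only (fold enrichment 3.76), and its exon there is also an exon of another annotated gene.

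Next, internal exons of at least 400 nt were examined. All 15 members whose main transcript has such an exon had an exonic peak in both lists, against 57.7% of the 3682 protein-coding genes that have one. Of the 2369 such genes with a peak in either list, 2124 had a peak in both. Of the 25 members without a long internal exon, 11 had a peak in both lists (44%), against 27.9% of all genes without one. The shortest exon that qualified a gene was the 448 nt exon of NBN, and the nearest below the limit were those of ATM (372 nt) and TOPBP1 (344 nt). By exon rather than by gene, 20 of the members' 24 long internal exons held a summit in both lists, against 46.4% of all 4719 long internal exons. Of the members' 747 shorter internal exons, 5 held a summit in replicate 1 and 0 in replicate 2, so that 0 did in both. Among all shorter internal exons 0.426% did. The same comparison among genes with a peak in either list gave 83.3% of long internal exons for the members and 70.0% for all genes, and 0 of 395 and 0.881% of the shorter ones. In this narrower comparison the members' 24 exons lay closer to the level of all genes.

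**Figure D2:**
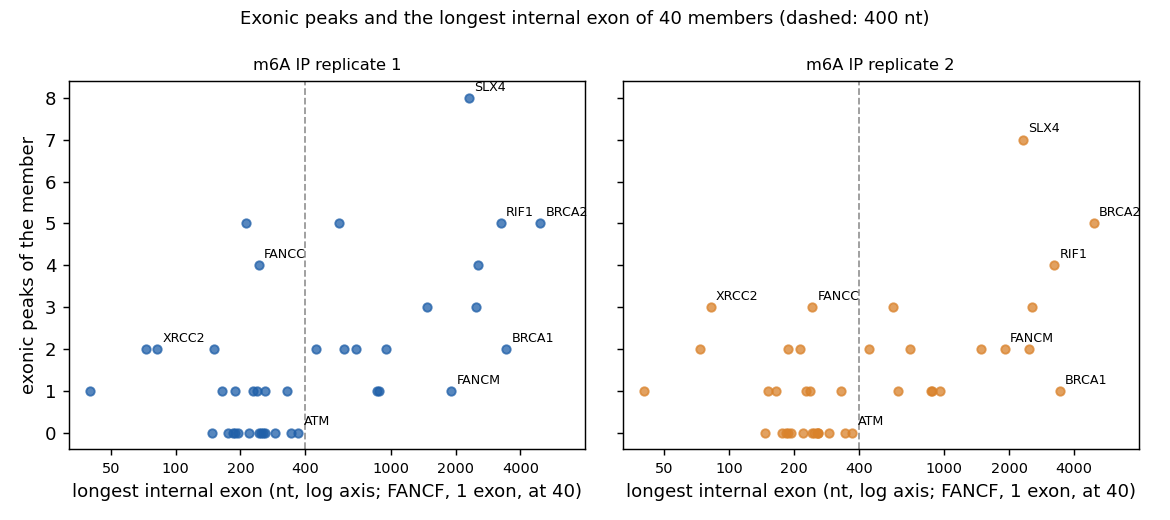
Number of exonic peaks of each member (vertical axis) against the length of its longest internal exon in nt (log axis), for the 40 members in each m6A IP replicate; the dashed line marks 400 nt. Every gene right of the line has at least 1 peak, and genes with 0 peaks lie left of it.

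The 4 long internal exons that did not have a summit in both lists were in 3 genes. FANCM, the helicase-like translocase that brings the Fanconi core complex to DNA, had none in exon 14 (1906 nt), and in exon 20 (561 nt) it had 1 in replicate 2 only. BRCA2 had none in exon 14 (428 nt). MDC1, the adaptor that binds phosphorylated histone H2AX, had 1 in exon 8 (792 nt) in replicate 1 only. An internal exon over 400 nt was thus not always accompanied by a summit, even in genes with peaks elsewhere.

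Long internal exons held 30 of the 59 member summits in main transcripts in replicate 1 (50.8%, Wilson interval 38.4% to 63.2%) and 28 of 49 in replicate 2 (57.1%, 43.3% to 70.0%). Over all protein-coding genes these shares were 17.7% and 23.1%. The members also have more sequence of this kind. Such exons made up 21.5% of the transcript length of members with a peak in replicate 1, against 8.21% for all genes with a peak, and 21.8% against 9.22% in replicate 2. Per kilobase, the members had 0.869 summits in long internal exons in replicate 1 and 0.811 in replicate 2, against 1.02 and 0.915 for all genes with a peak. The density in these exons was therefore not above that of all genes with a peak. The members had more sequence in such exons, and their density was numerically lower in first, other internal and last exons. Only genes with a peak in that list entered, so each brought at least 1 exonic summit whatever its length. Transcript length was not matched here, and how far this selection sets the densities was not tested. No interval was computed for these densities, and last exons held only 20 and 18 member summits. In shorter internal exons it was 0.0961 per kilobase in replicate 1 and 0 in replicate 2 (all genes 0.285 and 0.106), and in last exons 0.306 and 0.276 (0.424 and 0.375). First exons had 0.603 and 0.412 per kilobase (1.03 and 0.510), from 3 and 2 member summits. With 0 of 49 summits in shorter internal exons in replicate 2, the Wilson interval reached 7.27%, just under the 7.65% of all genes.

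**Figure D3:**
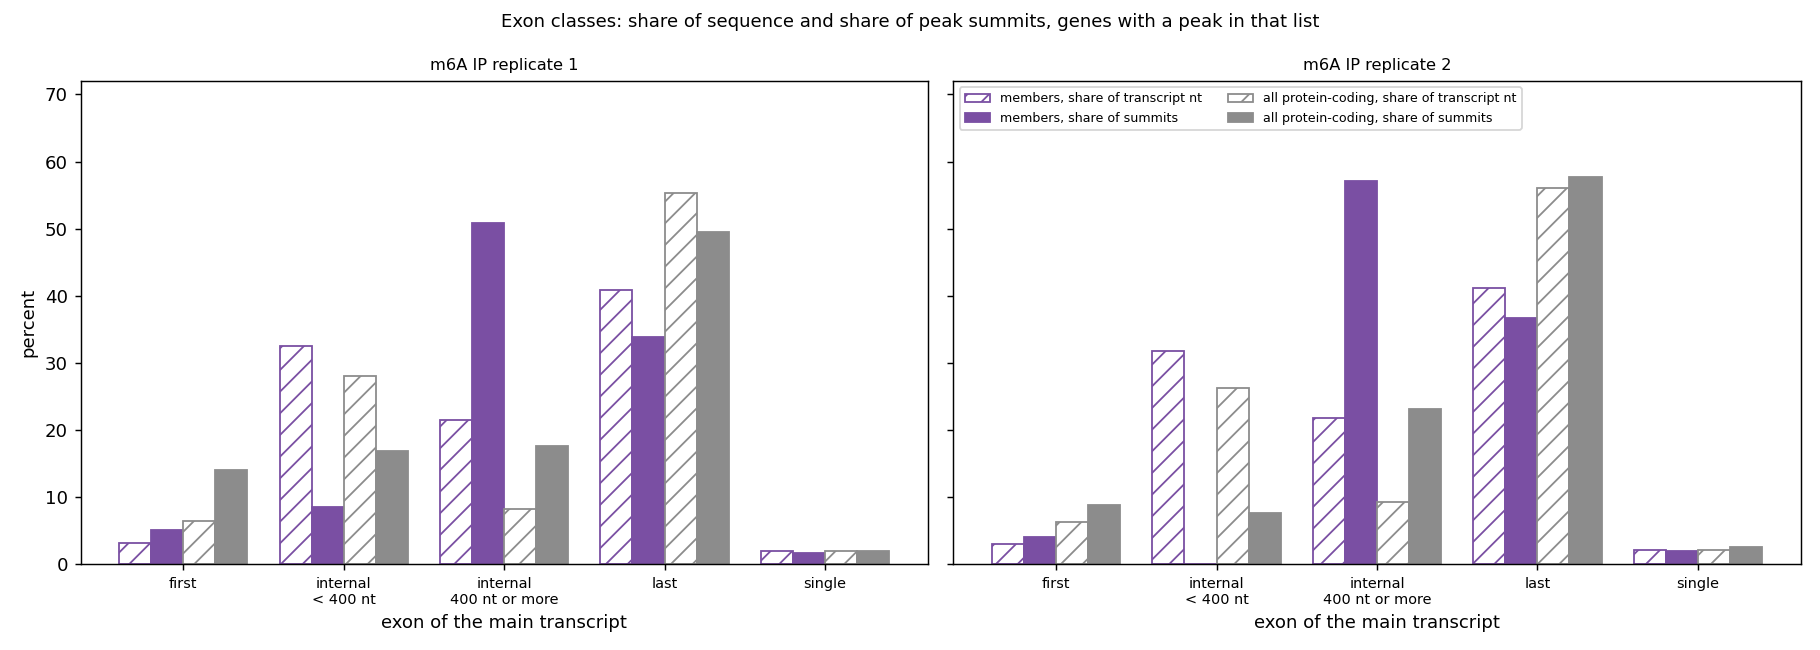
Share of transcript length (hatched bars) and of peak summits (filled bars), in percent, by exon class of the main transcript, for members (purple) and all protein-coding genes (grey) with a peak in that replicate. Members have 50.8% and 57.1% of their summits in internal exons of 400 nt or more, which hold 21.5% and 21.8% of their sequence.

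The member summits fell mostly in coding sequence. It held 43 of 59 in replicate 1 (72.9%) and 34 of 49 in replicate 2 (69.4%), against 47.0% and 46.2% over all genes. The stop codon with 200 nt to either side held 11.9% (Wilson interval 5.87% to 22.5%) and 12.2% (5.73% to 24.2%), against 24.6% and 27.2% over all genes. Both intervals ended below the value of all genes. Summits of 1 gene are not independent of each other, and SLX4 alone gave 8 and 7 of the peaks. The 3′ UTR beyond that window held 13.6% and 16.3% (19.2% and 20.9%), and the 5′ UTR 1 summit in each replicate. Within long internal exons, all 30 and 28 member summits lay at least 100 nt from both exon ends, the nearest at 133 nt and 174 nt. This was also so for 97.4% and 98.2% of such summits in all genes.

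Among the genes of homologous recombination, BRCA2, a mediator of strand exchange, had 5 peaks in each replicate. The strongest lay in exon 10 (1116 nt) at chr13:32332472-32333329 in replicate 1, with a fold enrichment of 11.4 (q = 4.02e-42). In replicate 2 it lay at chr13:32332793-32333356 with 7.70 (q = 4.69e-32), and the summits were 1 bp apart. Exon 11 of BRCA2, 4932 nt long, was the longest internal exon of the set. It held 3 peaks in each replicate, all paired: the summits at 32336555, 32337115 and 32338837 in replicate 1 had fold enrichments of 8.33, 7.29 and 3.46. Their partners in replicate 2 had 4.04, 5.98 and 3.38. The fifth pair lay in the coding part of the last exon, 439 nt and 421 nt before the stop codon, with 7.80 and 6.78. BRCA2 peaks thus overlapped between the replicates at all 5 places, and the 3′ part of exon 11 beyond the last of them held none.

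BRCA1, the ubiquitin ligase that acts early in homologous recombination, had weaker peaks. Its exon 10 is 3426 nt long and makes up 48.3% of the main transcript. A pair lay there, at chr17:43094218-43094521 in replicate 1 (fold enrichment 4.17, q = 7.51e-10) and chr17:43094123-43094480 in replicate 2 (4.14, q = 3.25e-12), with summits 15 bp apart. A further peak of replicate 1 at chr17:43093494-43093620 had 3.39 (q = 0.000223) and no partner. By the geometric mean of its best pair, 4.16, BRCA1 stood at percentile 17.9 of the 6613 protein-coding genes with a pair, and BRCA2, at 9.37, stood at percentile 79.2. BARD1, the partner of BRCA1 in the ligase, had its pair in exon 4 (950 nt) with 7.77 and 4.18.

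PALB2, which joins BRCA1 to BRCA2, had the strongest pair of this group. It lay in exon 4 (1473 nt) at chr16:23635411-23636171 in replicate 1 with a fold enrichment of 13.2 (q = 2.80e-31). In replicate 2 it lay at chr16:23635620-23636191 with 7.62 (q = 6.24e-24). A further pair in exon 5 (830 nt) had 8.16 and 8.40, so in that exon the replicates were level. The helicase BRIP1 and the recombination genes XRCC2 and RAD51D have no long internal exon, and their pairs lay in the last exon, with 6.67 and 8.77 in BRIP1, 9.42 and 7.53 in XRCC2 and 11.6 and 5.37 in RAD51D. RAD52, which anneals single strands, had 5.01 and 4.18 in the 3′ UTR. XRCC3 had 4.77 and 2.80 at a place that is also an exon of KLC1, and 4.89 and 2.48 at its own stop codon.

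**Figure D4:**
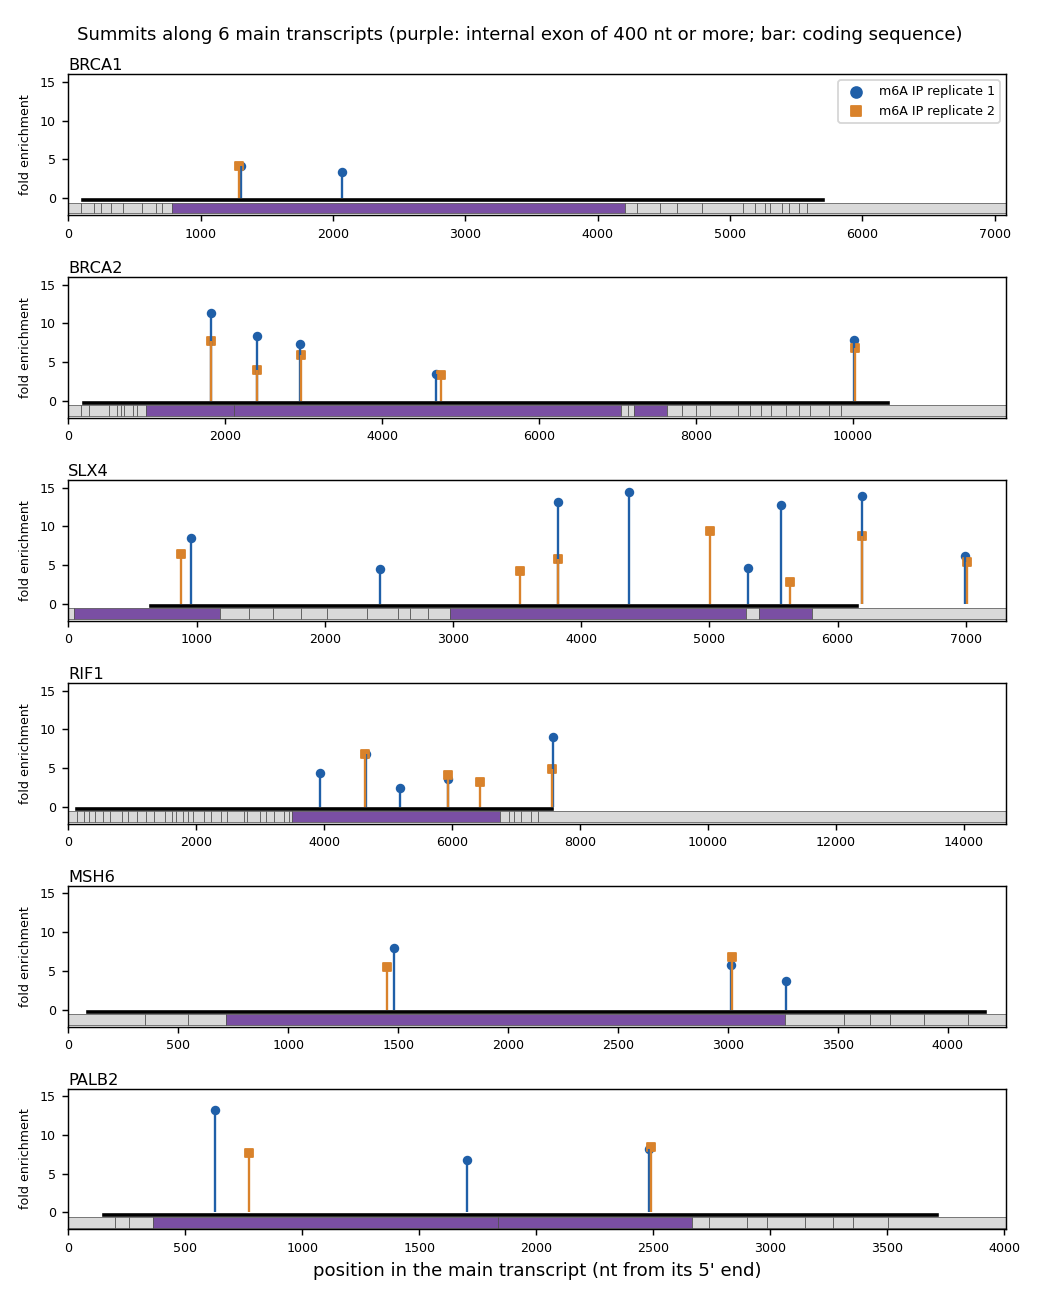
Peak summits along the main transcripts of 6 members, with position in nt from the 5′ end on the horizontal axis and fold enrichment on the vertical axis; circles are replicate 1 and squares replicate 2, purple boxes are internal exons of 400 nt or more, and the black bar is the coding sequence. Most summits of BRCA1, BRCA2, SLX4, RIF1, MSH6 and PALB2 stand over purple exons, and the peak of MSH6 outside its main transcript is not drawn.

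In the Fanconi group, SLX4, a scaffold for structure-specific nucleases, had the most peaks of any member, 8 in replicate 1 and 7 in replicate 2. The best pair lay in exon 12 (2309 nt) at chr16:3589002-3590204 in replicate 1 (fold enrichment 14.4, q = 1.09e-37) and chr16:3588951-3590092 in replicate 2 (9.33, q = 6.15e-24). These wide peaks overlapped, but their summits were 637 bp apart. The pair next to it in the same exon had 13.1 and 5.81 with summits 3 bp apart. Exon 2 (1137 nt) had 8.50 and 6.38, and exon 14 (414 nt) had 12.8 and 2.80. In the last exon a pair at the stop codon had 13.9 and 8.80, and another in the 3′ UTR had 6.16 and 5.37. Every long internal exon of SLX4 thus held a pair, and the replicates differed most in exon 14.

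FANCM had the highest geometric mean of a pair, 12.0, at percentile 92.4 of genes. This pair lay in the coding part of its first exon (610 nt), at chr14:45135985-45136532 with a fold enrichment of 16.2 (q = 1.54e-34) and chr14:45136055-45136525 with 8.88 (q = 3.66e-20). FANCC, of the core complex, had 4 peaks in replicate 1 and 3 in replicate 2. Those at chr9:95101440-95101814 (7.90, q = 7.26e-25) and chr9:95101478-95101771 (4.77, q = 4.01e-14) lay at the stop codon. Further along the 3′ UTR a pair had 7.56 and 3.73, and its best pair (10.5 and 6.23) lay in an exon of another FANCC transcript. The core protein FANCE had 8.63 and 6.60 with the same summit base in both replicates, in its 607 nt exon 2. FANCF, a gene of 1 exon, had 7.67 and 3.78. For FANCA (7.26 and 5.53) and the ubiquitin ligase FANCL (3.24 and 3.09) the assignment is uncertain, since these summits also lie in exons of ZNF276 and VRK2.

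Of the checkpoint genes, ATRIP, the partner that brings ATR to single-stranded DNA, had the best pair. It lay in exon 8 (690 nt) at chr3:48460206-48460723 with a fold enrichment of 11.0 (q = 6.86e-32) in replicate 1 and chr3:48460178-48460607 with 9.90 (q = 4.97e-27) in replicate 2. A further pair in its last exon, 11.9 and 5.28, also lies in an exon of TREX1. ATR itself had 4.39 and 3.99 in exon 4 (878 nt), so the kinase stood well below its partner. CLSPN, the mediator of CHK1 activation, had 5 peaks in replicate 1 and 3 in replicate 2, with pairs in exon 3 (6.07 and 8.09) and exon 8 (7.61 and 4.60). The exon 3 peaks at chr1:35764280-35764631 and chr1:35764337-35764590 had q = 1.38e-18 and q = 9.31e-27. RIF1, which limits the resection of DNA ends, had 4 and 3 peaks in its 3237 nt exon 30. The best pair there, chr2:151463934-151464127 and chr2:151463914-151464123, had 6.76 in each replicate (q = 2.45e-19 and 1.20e-19), and a pair at the stop codon had 8.96 and 4.80. MDC1 had 6.76 and 5.04 in exon 5 (1481 nt) and 5.12 and 4.18 in exon 10 (2478 nt).

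In the break-binding complex, NBN had a pair in exon 11, with 5.18 (q = 3.27e-17) at chr8:89953312-89953674 in replicate 1 and 6.69 (q = 2.10e-19) at chr8:89953364-89953522 in replicate 2. Its other pair, with 5.46 (q = 1.75e-19) in replicate 1 and 2.96 (q = 8.62e-09) in replicate 2, lies outside the main transcript in an exon shared with OSGIN2. RAD50 counted as present in both lists, but its peaks lay in different places, the 3′ UTR in replicate 1 (5.65) and the 5′ UTR in replicate 2 (3.03), and did not pair. Thus 25 of the 26 members had a pair. LIG4, which seals ends in non-homologous end joining, carries its whole coding sequence in a last exon of 3855 nt and had pairs with 6.66 and 5.37 and with 6.78 and 6.80. The second was at chr13:108210429-108211174 (q = 7.68e-23) and chr13:108210759-108211202 (q = 1.29e-22).

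Both mismatch repair members had paired peaks in long exons. MSH6, which recognises mismatches, had 2 pairs in exon 4 (2545 nt, 59.7% of its transcript). They lay at chr2:47798646-47799738 and chr2:47798669-47799645 (7.88 and 5.48, q = 1.09e-51 and 5.64e-43), and at chr2:47800559-47801179 and chr2:47800578-47801159 (5.71 and 6.73, q = 1.40e-36 and 2.11e-43). Another pair (9.71 and 5.60) lies outside the main transcript in an exon shared with FBXO11. PMS2, a nuclease subunit, had its pair in exon 11 (862 nt) at chr7:5986847-5987540 with 16.8 (q = 3.38e-56) and chr7:5986841-5987508 with 6.07 (q = 8.58e-21). Its copy in PMS2CL also held a peak in each list, with 11.1 in replicate 1 and 10.6 in replicate 2. Reads of PMS2 and PMS2CL may be exchanged here, so the PMS2 values are uncertain.

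The members' peaks were then compared between the replicates. Of 68 peaks in replicate 1, 51 overlapped a peak of replicate 2 (75%, Wilson interval 63.6% to 83.8%), against 60.6% over all genes. In the other direction it was 52 of 55 (94.5%, 85.1% to 98.1%), against 95.9%. The median fold enrichment of the members' peaks was 6.71 (quartiles 4.64 and 8.53) in replicate 1 and 5.37 (4.07 and 6.74) in replicate 2. Over all genes it was 5.21 and 4.72. Peaks of replicate 1 without a partner were weaker, with a median of 4.58 for 17 peaks against 7.61 for the 51 shared ones. The 49 pairs had a median log2 ratio of replicate 1 over replicate 2 of 0.42 (95% interval of the median 0.29 to 0.73), and 41 were higher in replicate 1. Over all 10853 pairs the median was 0.44, so the members followed the general offset between the lists. The extreme pairs were SLX4 exon 14, at 2.19, and a CLSPN pair outside the main transcript, at -0.83. Summits of a pair were a median of 29 bp apart, and 42 of 49 were within 100 bp.

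**Figure D5:**
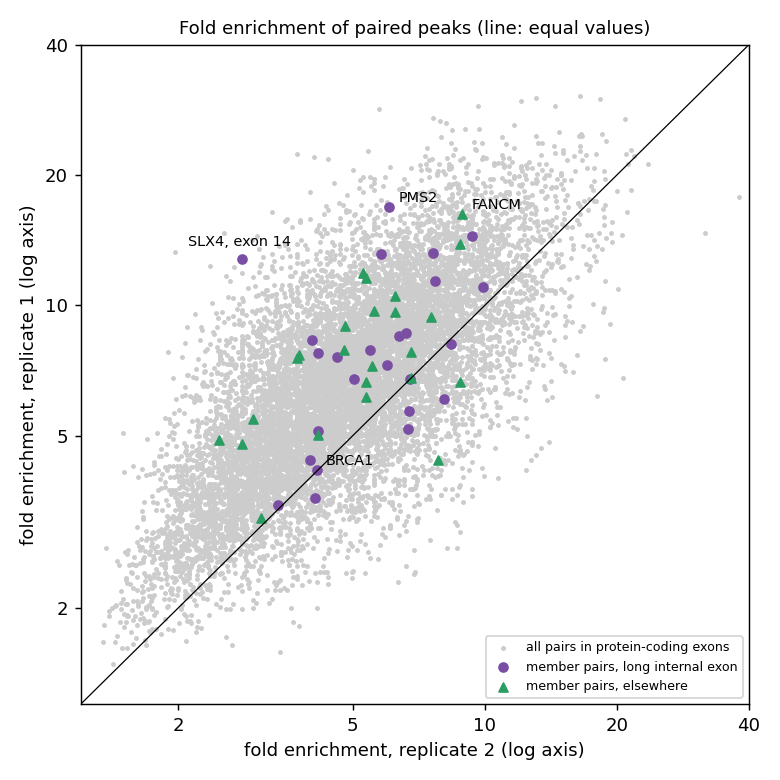
Fold enrichment of paired peaks in replicate 1 (vertical) against replicate 2 (horizontal), both on log axes; purple circles are member pairs in internal exons of 400 nt or more, green triangles are other member pairs, grey points are the 10853 pairs in protein-coding exons, and the line marks equal values. Of the 49 member pairs, 41 lie above the line, and SLX4 exon 14 is the farthest above it.

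Finally, the sequence around all member summits was searched on the gene's strand within 50 nt. GGAC was present at 32 of 68 in replicate 1 (47.1%, Wilson interval 35.7% to 58.8%) and 21 of 55 in replicate 2 (38.2%, 26.5% to 51.4%). Over all genes, 49.7% and 51.7% of windows of the same length held it. The member windows were poorer in G and C, with a median of 47.5% and 45.5% against 59.4% and 56.4%. GTCC, the same letters read on the opposite strand, was found in 33.8% and 32.7% of member windows and 31.5% and 29.5% of all windows. In long internal exons alone, GGAC stood at 53.3% and 50% for the members and 49.9% and 50.9% for all genes. The motifs GAAC and AGAC were added after these values were seen. At least 1 of the 3 motifs was present at 77.9% and 76.4% of member summits, against 79.7% and 82.5%. Outside long internal exons, GGAC was present at 16 of 38 member summits in replicate 1 and 7 of 27 in replicate 2, which is where the lower value of replicate 2 arose.

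A further list of 50 DNA damage response genes outside the set was counted in the same way. Of these, 27 had an exonic peak in both lists (54.0%, Wilson interval 40.4% to 67.0%), against 33.4% of all protein-coding genes. The share among genes of like exonic length was not computed for this list. Whether 54.0% lies above that level was therefore not tested. The genes of this list with a long internal exon numbered 18, of which 17 had a peak in both lists, against 57.7% of all such genes. Of the 32 without, 10 did, close to the 27.9% of all genes without one. By exon, 22 of 23 long internal exons held a summit in both, against 46.4% over all genes. Among all genes with a peak in either list, 70.0% of long internal exons held one in both. Of the 2369 such genes with a long internal exon, 2124 had a peak in both. The values of this list among genes with a peak were not computed. Of its 542 shorter internal exons, 0 held a summit in both, against 0.426% over all genes. The count for the shorter exons is too low to be set apart from that share. The 5 with the highest geometric mean of a pair were the helicase BLM (12.3), the USP1 cofactor WDR48 (12.0), the ubiquitin ligase RNF168 (11.1), the clamp subunit RAD9A (9.22) and the ligase LIG3 (9.16). Of these, BLM and LIG3 have a long internal exon. RPA3 was the gene with a long internal exon and no peak in either list.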

How the data were processed

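The m6A peak lists of OE-19 cells were used. Groups came from the sample titles, which gave m6A IP and input, each with replicates 1 and 2. According to the study's methods, DNase-treated and fragmented total RNA was incubated with the m6A antibody, but per the labels the cells were fixed with UV and lysed. The methods name TopHat2 for mapping to hg38, while the submitters' processing notes name fastp and HISAT2. Both name MACS2, run with default settings on each sample. Releases, and whether the input served as control, are not given in the sources used here. For each peak the authors deposited a fold enrichment, the ratio of summit signal to the caller's background. The deposited −log10 p-value and −log10 q-value were used for thresholds only, and the deposited score was not used. The highest q was 0.0491 and 0.0497. The lists hold no read counts, so depth is unknown and the number of peaks limits the precision. An antibody peak is far wider than a base, so no single modified base is located.

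Exons came from GENCODE version 44, with coordinates 1-based. A peak counted for each protein-coding gene with an exon, in any transcript, under its summit, because the lists carry no strand. Overlapping genes can therefore share a peak. Exon classes and regions used the MANE Select transcript, or else the one with the longest CDS, with a stop codon window of 200 nt on each side and 400 nt as the minimum of a long internal exon. In replicate 1, 9 of 68 member peaks lay outside the main transcript, and 6 of 55 did in replicate 2. Shared peaks overlapped by at least 1 bp, and a pair is the reciprocal largest overlap. Full detail went to the best pair of each role, to BRCA1 and BRCA2, and to members with 3 or more peaks in both lists. For these genes, 1 window each was shown, at the best shared coding peak in a long internal exon. NBN, on chromosome 8, was left out of the windows. Alternatives were other q, fold enrichment, overlap, exon, window, transcript and assignment rules and each replicate left out. Members and lists were chosen with earlier results of these data known, so no list was tested. The scripts were tested on simulated peaks. Intervals are 95% Wilson intervals and cover counting error only. The tools were pysam 0.24.0, matplotlib 3.10.9, pandas 2.3.3, scipy 1.17.1 and numpy 2.4.6 under Python 3.11.15.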

Additional observations from a re-analysis of the deposited data

Results flagged for a closer look

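Peaks inside the members' gene bodies but outside their exons entered none of the comparisons and are given here as values. In replicate 1, 10 such summits in 5 members lay outside every annotated exon, and 15 lay in exons of other genes. In replicate 2 the numbers were 12 summits in 7 members and 7. The input samples were not analysed, so no control level stands beside them. FANCA had the strongest by fold enrichment, 12.5 in replicate 1 against 9.53 in replicate 2, outside the span of its main transcript. The nearest replicate 1 summits on either side of this peak lay in exons of ZNF276, so its gene is uncertain. RIF1 had 7.14 and 6.56 at one such place, and BRIP1 had 9.12 in replicate 2 only. BRCA1 had 5 and 3, all upstream of its main transcript within the span of longer annotated ones. Other summits in that stretch lay in exons of NBR2. Because the lists carry no strand, these peaks cannot be assigned to BRCA1. SLX4 had 1 in replicate 2, with 6.73, in the intron beside exon 13, and it overlapped the replicate 1 peak whose summit lay in that exon.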

How the results depend on the processing

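The 26 members with a peak in both lists became 18 at a fold enrichment of 5 or more, where genes of like exonic length stood at 29.4%. At q of 1e-05 or less they became 25, and with summits in exons of no other gene 23. Genes of like exonic length stood at 42.1% in both of these settings. The other 5 settings left the same 26 genes. With replicate 1 left out, 26 members and 27 other pathway genes had a peak, against 34.1% of all protein-coding genes. With replicate 2 left out it was 27 and 31, against 42.4%. The other pathway genes numbered 23 of 50 with summits in exons of no other gene, against 29.8% of all protein-coding genes. At a fold enrichment of 5 or more they numbered 17, against 19.3%. The 15 members with a long internal exon became 12 at that fold enrichment (38.8% of all such genes) and stayed 15 under the 6 other settings (53.1% to 57.6%). These recounts were added after seeing the data. The shared percentage fell to 63.2 in replicate 1 and 76.4 in replicate 2, both with an overlap of at least 50% of each peak and with summits within 100 bp. Raising the exon minimum to 1000 nt gave 32.2% and 34.7% of member summits in long internal exons. The share over all genes was not computed at this minimum. The median fold enrichment was 7.77 and 6.65 at a fold enrichment of 5 or more, which selects on it, and 7.67 and 6.56 for the best peak of each member. The percentage with GGAC was 22.1 and 18.2 with 25 nt on each side and 64.7 and 61.8 with 100 nt, as the window length implies. In 110 of 125 recalculations the value stayed within the counting interval or the spread between replicates, or within 1.5 times for counts, and none reversed. No paired analysis was possible because only the IP samples had peak lists. Depth and expression are unknown, so a missing peak is no evidence that m6A is absent.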
